A study of Mus musculus with 56 samples.

Results

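Major histocompatibility complex (MHC) class II antigen presentation was followed through 8 genes of mouse liver RNA-seq: H2-Aa, H2-Ab1, H2-Eb1, Cd74, H2-DMa, H2-DMb1, Ciita and Ctss. They were taken by name, with no measured value in the rule, and all 8 were found among the 21888 gene symbols of the expression table, whose unit is FPKM, fragments scaled to transcript length and to library size. The study asked what happens to the liver after miR-122, the most abundant hepatocyte microRNA, is removed. All 14 mice carried the labelled strain background 129Sv/J. In 11 animals loxP sites lay around miR-122: 3 were uninjected (day 0), and the others were killed 21 days (n = 3), 45 days (n = 3), 100 days (n = 1) or 200 days (n = 1) after tail vein injection of rAAV8 carrying Cre under the Ef1a promoter, which is active in most cell types. A further 3 mice were labelled miR-122 knockout, with no vector named. The injected mice were adult by the study's account; each library is 1 mouse, and sex and exact age are not given. The uninjected mice received no vector, so the effects of the vector, of Cre, of time and of the loss of miR-122 cannot be told apart in the injected mice, nor can the mouse line and the missing miR-122 in the knockout.

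MHC class II molecules are pairs of an alpha and a beta chain that hold peptides from engulfed protein at the surface of dendritic cells, B cells and macrophages, where CD4+ T cells read them. In the liver the resident macrophages (Kupffer cells), dendritic cells, B cells and endothelial cells of the sinusoids are the usual carriers, and hepatocytes carry little. H2-Aa and H2-Ab1 encode the alpha and beta chains of I-A, and H2-Eb1 encodes the beta chain of I-E, whose alpha chain gene is broken in C57BL/6 and 129 mice. Cd74 is the invariant chain, which blocks the peptide groove until the molecule reaches the endosome. Ctss, cathepsin S, is the lysosomal protease that cuts the invariant chain down, and H2-DMa and H2-DMb1 form H2-DM, which exchanges the remaining fragment for antigenic peptide. Ciita is the coactivator that switches these class II genes on.

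The small RNA libraries with the same group labels were used to check the injection: miR-122 was 59.2 to 73.3% of microRNA reads in the uninjected mice, 8.22 to 13.2% at day 21, 0.383 to 1.23% at day 45, 4.46% at day 100 and 19.1% at day 200. No small RNA library of the knockout was used, and the Mir122a entry of the RNA-seq table, listed at 0 in all 14 mice, does not check the knockout. Read totals per RNA-seq library are not given in the sources used here. An approximate effective depth, in units of 1e6 fragments, was read from the smallest FPKM steps and ran from 23.4 to 57.7, with the knockout libraries, at no more than 30.9, below all the floxed ones. Knockout replicates A and B stood apart from the rest by transcript length. Relative to the day 0 mean, the median log2 ratio of all tested genes with transcripts under 1500 bases was 0.49 in replicate A and 0.33 in replicate B, whereas that of genes of 5000 bases and over was -0.51 and -0.23. The shortest class minus the longest was 0.997 and 0.558 in these libraries and -0.413 to 0.315 in all the others, knockout replicate C included. The longest annotated transcripts of 6 of the 8 genes are 1132 to 1410 bases, that of H2-DMa is 1555 bases, and that of Ciita is 5290 bases.

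**Figure D1:**
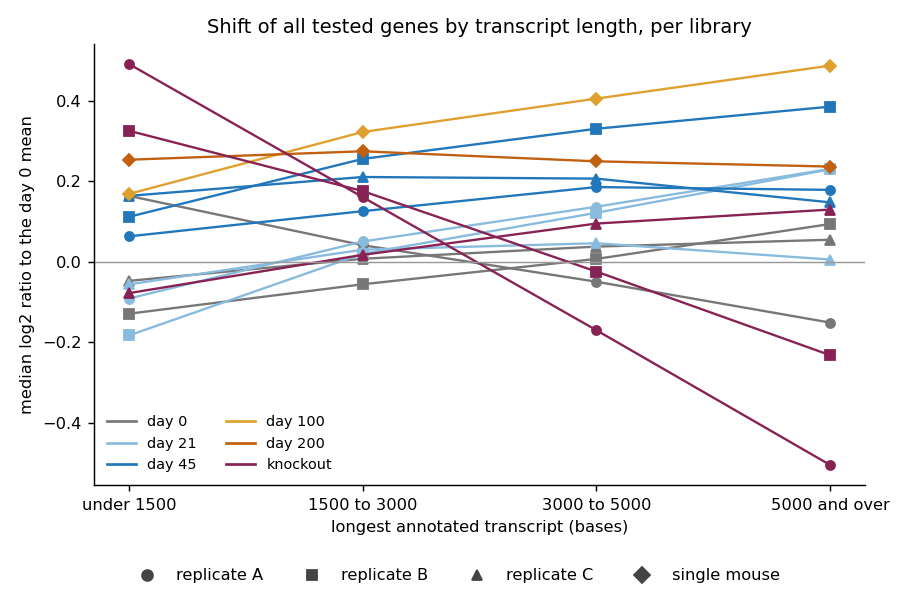
Median log2 ratio to the day 0 mean of all tested genes in 4 classes of transcript length, with 1 line per library, coloured by group and marked by replicate. Knockout replicates A and B fall from 0.49 and 0.33 in the shortest class to -0.51 and -0.23 in the longest, and knockout replicate C does not.

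The chains of the I-A and I-E molecules were higher in every injected and every knockout mouse than in any uninjected mouse. H2-Aa (chr17:34419696-34424716 of mm9, minus strand) stood at 46.9, 38.4 and 110 FPKM in uninjected replicates A, B and C, at 252, 232 and 513 at day 21, at 181, 287 and 262 at day 45, at 425 at day 100, at 629 at day 200, and at 852, 785 and 216 in knockout replicates A, B and C. No later value of H2-Aa overlapped the uninjected range, and replicate C was the highest mouse at days 0 and 21 but the lowest knockout. In bulk liver a change in the number of cells of a type and a change in the RNA of each cell cannot be told apart. H2-Ab1 (chr17:34400172-34406363, plus strand) gave 30.05, 20.0 and 57.9 FPKM without injection, 146, 134 and 360 at day 21, 123, 182 and 156 at day 45, 283 and 443 at days 100 and 200, and 721, 735 and 174 in the knockout. H2-Eb1 (chr17:34442812-34453619, plus strand) gave 18.2, 13.3 and 40.5 FPKM without injection, 113, 101 and 243 at day 21, 77.1, 126 and 110 at day 45, 194 and 287 at days 100 and 200, and 409, 399 and 106 in the knockout. As for H2-Aa, uninjected replicate C, day 21 replicate C and knockout replicates A and B had the highest values of their groups for both beta chains. H2-Ea-ps, the row that the table holds for the broken I-E alpha chain, was listed at 0 in all 14 mice.

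Cd74 was the most abundant of the 8 genes in every mouse on the per-length FPKM scale. Its values were 70.6, 63.1 and 143 FPKM in the uninjected mice, 377, 353 and 896 at day 21, 315, 513 and 423 at day 45, 746 at day 100, 889 at day 200, and 1597, 1733 and 411 in the knockout. As for the chains, no group overlapped the uninjected mice and knockout replicate C lay below the single mice of days 100 and 200. H2-DMa (chr17:34272616-34275480, plus strand) was at 3.98, 3.41 and 8.15 FPKM without injection, at 19.5, 15.4 and 35.8 at day 21, at 15.1, 18.7 and 21.0 at day 45, at 30.2 and 38.9 at days 100 and 200, and at 58.8, 64.3 and 14.8 in the knockout. H2-DMb1 (chr17:34290136-34297174, plus strand) was at 2.39, 2.31 and 5.59 FPKM without injection, at 13.9, 9.43 and 24.4 at day 21, at 10.99, 17.0 and 15.8 at day 45, at 23.7 and 33.6 at days 100 and 200, and at 45.8, 51.5 and 11.4 in the knockout. On the FPKM scale both peptide exchange genes were below each of the 3 chain genes in every mouse. H2-DMb1 has a close copy beside it, H2-DMb2, and reads that fit both could have been split between them.

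Ciita and Ctss rose as well, but were ordered differently in the knockout. Ciita (chr16:10488372-10527657, plus strand) was at 0.202, 0.238 and 0.513 FPKM in the uninjected mice, at 2.17, 1.44 and 2.87 at day 21, at 1.51, 2.35 and 1.83 at day 45, at 3.56 and 3.44 at days 100 and 200, and at 1.27, 1.85 and 1.83 in the knockout. It was the scarcest of the 8 genes in every mouse, and the 3 knockout mice overlapped the mice of days 21 and 45, with replicate A below all of them. Ctss (chr3:95330708-95360325, plus strand) was at 48.4, 39.8 and 71.0 FPKM without injection, at 129, 149 and 216 at day 21, at 156, 236 and 202 at day 45, at 240 and 249 at days 100 and 200, and at 100.6, 92.9 and 73.3 in the knockout. All 3 knockout mice lay above the uninjected mice and below every injected mouse for Ctss, the only one of the 8 genes for which that was so. Ciita passed the filter of a mean of at least 1 FPKM only through the injected and knockout mice, its uninjected mean being 0.318 ± 0.170 FPKM (SD, n = 3), which the approximate depth puts at 60 to 130 fragments per library.

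**Figure D2:**
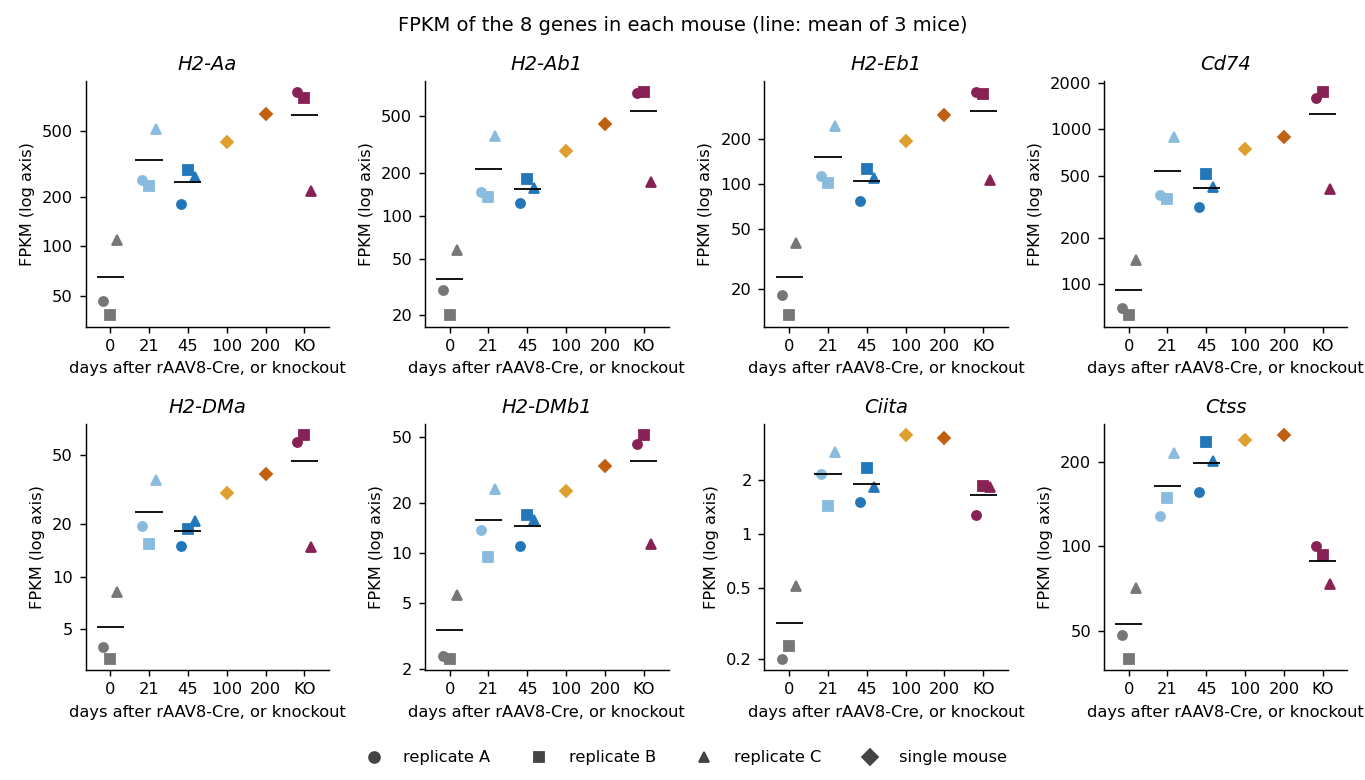
FPKM (log axis) of the 8 genes in each of the 14 mice by days after rAAV8-Cre or in the knockout (KO), with marker shapes for replicates and a line at the mean of each group of 3. Every injected and knockout mouse lies above the 3 uninjected mice in all 8 panels, and the knockout mice are spread widely for the class II genes but lie between 73.3 and 100.6 FPKM for Ctss.

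At day 21 the 7 genes other than Ciita, which are those past the filter without injection, were all called higher than at day 0 by limma at an adjusted p under 0.05, where 6.2% of the 11354 tested genes were called higher. Their 3 day 21 mice lay above the 3 uninjected mice in 7 of 7 genes, against 25.2% of all tested genes. The median log2 fold change of the 7 was 2.39, and that of all tested genes was 0.061. H2-Eb1 rose by 2.65 on the log2(FPKM + 1) scale (SE 0.53, adjusted p = 0.0127, limma) and had the largest difference, from a mean of 24.0 ± 14.5 to 152 ± 78.9 FPKM (SD, n = 3 each). Cd74 rose by 2.50 (SE 0.53, adjusted p = 0.0144), H2-Ab1 by 2.52 (SE 0.56, adjusted p = 0.0186) and H2-Aa by 2.39 (SE 0.53, adjusted p = 0.0181). H2-DMa rose by 1.98 (SE 0.48, adjusted p = 0.0283) and H2-DMb1 by 1.91 (SE 0.50, adjusted p = 0.0370). Ctss rose by 1.62 (SE 0.25, adjusted p = 0.00429) and Ciita by 1.24 (SE 0.19, adjusted p = 0.00407). Because 1 FPKM is added before the logarithm, the change of the scarce Ciita is understated, and with 0.1 FPKM added it was 2.46 (adjusted p = 0.00235). Of the 7 genes only Ctss stayed called without uninjected replicate A, without uninjected replicate B or without day 21 replicate C, and Ciita did as well. In these fits H2-Aa differed by 2.24, 2.10 and 2.03 (adjusted p = 0.0735, 0.0807 and 0.0865, limma), and the calls over all genes fell from 865 to 302, 249 and 241.

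By day 45 the same 7 genes were again called higher than in the uninjected mice, at a background of 23.7% of tested genes called higher and 40.5% with every day 45 mouse above every uninjected mouse. The median log2 fold change of the 7 genes was 2.02, beside 0.20 for all tested genes. Cd74 had risen by 2.23 (SE 0.53, adjusted p = 0.00820, limma), from 92.3 ± 44.2 to 417 ± 99.4 FPKM (SD, n = 3 each). H2-Eb1, H2-Ab1 and H2-Aa had risen by 2.20, 2.18 and 2.02 (adjusted p = 0.00946, 0.0123 and 0.0136). For the exchange factors H2-DMa and H2-DMb1 the values were 1.71 (adjusted p = 0.0204) and 1.87 (adjusted p = 0.0151). Ctss rose by 1.90 (SE 0.25, adjusted p = 0.000516), the smallest adjusted p of the 8, from 53.0 ± 16.1 to 198 ± 40.0 FPKM. Ciita rose by 1.13 (SE 0.19, adjusted p = 0.00134), and by 2.31 with 0.1 FPKM added. Without uninjected replicate A 5 of the 8 genes stayed called, Ciita included, and 4 did without uninjected replicate B or without day 45 replicate B. Ciita, Ctss, Cd74 and H2-Eb1 were called in each of these, and the calls over all genes fell from 3027 to 2273, 2201 and 1746.

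Between day 21 and day 45 none of the 8 genes differed at an adjusted p under 0.05 by limma, none had an unadjusted p under 0.05, and 0.273% of tested genes were called in either direction. For H2-Aa the 95% interval of the day 45 minus day 21 difference was -1.52 to 0.77 on the log2 scale, and for Ctss it was -0.26 to 0.82. Over the 6 class II genes the lower ends of these intervals were -1.61 to -1.12 and the upper ends 0.71 to 1.05.

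The mice of days 100 and 200, taken as 1 group of 2, had higher means than either earlier injected group for all 8 genes, for example 818 ± 101 FPKM for Cd74 and 244 ± 6.52 FPKM for Ctss (SD, n = 2). The 7 genes other than Ciita were called higher than in the uninjected mice, as were 28.4% of tested genes (3.21% were lower), and 52.9% of tested genes had both mice above all uninjected mice. H2-Ab1 and H2-Eb1 rose by 3.40 each (SE 0.62 and 0.60, adjusted p = 0.00149 and 0.00116, limma). Cd74 rose by 3.23, H2-Aa by 3.13, H2-DMb1 by 2.80, H2-DMa by 2.59, Ctss by 2.22 and Ciita by 1.78, with adjusted p from 0.000132 for Ciita to 0.00323 for H2-DMa. The 7 genes, and Ciita as well, stayed called when any uninjected mouse was left out. With either late mouse left out, the 1 that remained was assumed to vary like the mice of the other groups. Without the mouse of day 100 or of day 200, H2-Aa rose by 3.41 or 2.84, and Ctss by 2.25 or 2.20. Against day 45, none of the 8 was called higher at an adjusted p under 0.05 by limma, with 0.22% of tested genes called in either direction. Ciita was the 1 gene with an unadjusted p under 0.05 (log2 difference 0.65, 95% interval 0.19 to 1.10, adjusted p = 0.344 by limma). The differences of the other 7 ran from 0.32 for Ctss to 1.22 for H2-Ab1, whose interval was -0.14 to 2.57.

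**Figure D3:**
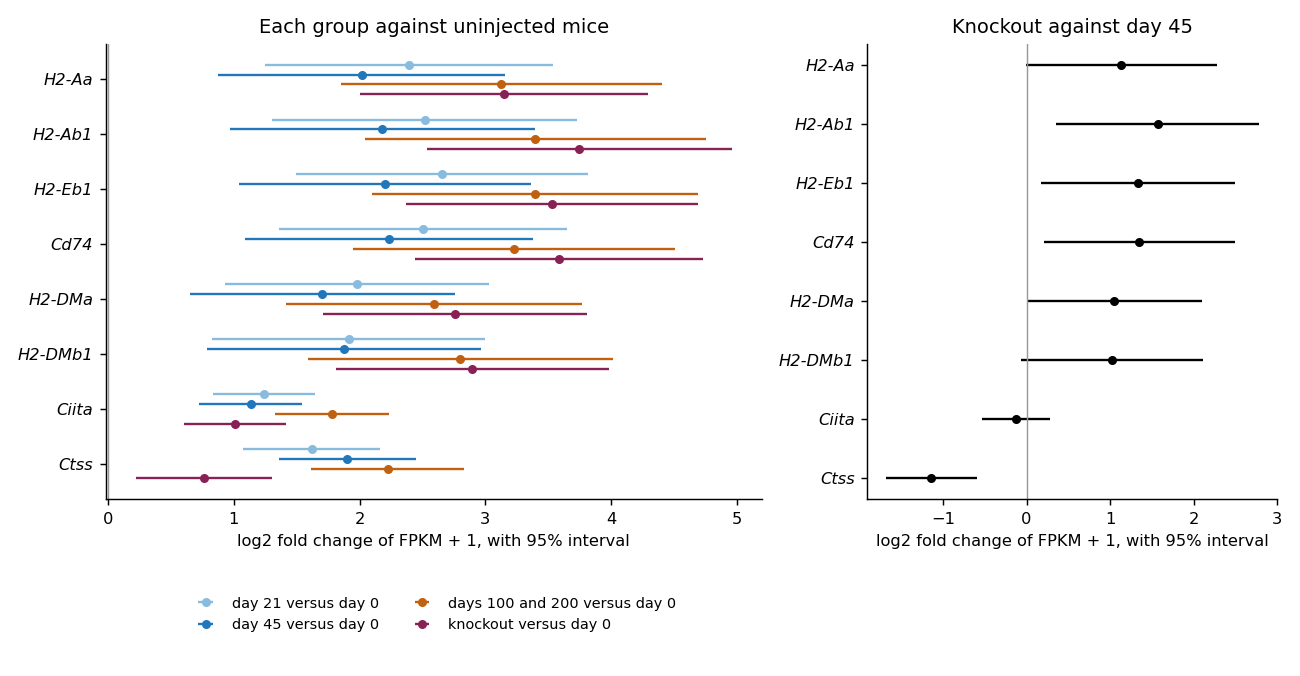
Log2 fold change of FPKM + 1 with its 95% interval from limma, for 4 groups against the uninjected mice (left) and for the knockout against day 45 (right). All 32 intervals on the left lie above 0, and on the right the class II genes sit at 1.02 to 1.57 while Ctss sits at -1.14.

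In the knockout the 7 genes other than Ciita were called higher than in the uninjected floxed mice, where 19.3% of tested genes were called higher, 14.5% lower, and 21.1% had every knockout mouse above every uninjected mouse. H2-Ab1 rose by 3.75 (SE 0.56, adjusted p = 0.000804, limma), Cd74 by 3.58 (SE 0.53, adjusted p = 0.000754) and H2-Eb1 by 3.53 (SE 0.53, adjusted p = 0.000882). H2-Aa rose by 3.15, H2-DMb1 by 2.90 and H2-DMa by 2.76, with adjusted p between 0.00151 and 0.00198. The knockout means carry a wide error: Cd74 averaged 1247 ± 727 FPKM (SD, n = 3) and H2-Ab1 543 ± 320 FPKM. Ciita rose by 1.01 (SE 0.19, adjusted p = 0.00262), or 2.12 with 0.1 FPKM added. Ctss rose by 0.76 (SE 0.25, adjusted p = 0.0345, limma), from 53.0 ± 16.1 to 88.9 ± 14.0 FPKM. Its call was lost without uninjected replicate A or B and without knockout replicate A or B. It was also lost in a fit of these 2 groups only (adjusted p = 0.108, limma) and with the replicate letter as a block (adjusted p = 0.0593). The other 7 genes, Ciita included, kept their calls without any single mouse. Knockout replicates A and B, which held the highest class II values, were also the libraries shifted by transcript length, and the part of that shift in the result was not tested. Replicate C, without the shift, had H2-Aa at 216, H2-Ab1 at 174, H2-Eb1 at 106 and Cd74 at 411 FPKM, each above the highest uninjected mouse.

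Against day 45, the knockout differed for Ctss, which was lower by 1.14 on the log2 scale (adjusted p = 0.0210, limma; 8.23% of tested genes called lower), at 88.9 ± 14.0 against 198 ± 40.0 FPKM. Every knockout mouse was below every day 45 mouse. This call was lost without day 45 replicate B (adjusted p = 0.0894), without day 45 replicate C (0.0673), without knockout replicate B (0.0689), in a fit of these 2 groups only (0.0978), and with libraries centred on their median log2 ratio (0.0635), with the difference between -0.92 and -1.17 in these 5 fits. No gene of the 8 was called higher, beside 1.21% of tested genes, although 4 (H2-Ab1, H2-Eb1, Cd74 and H2-DMa) had an unadjusted p under 0.05. Their differences were 1.57, 1.33, 1.35 and 1.05, with 95% intervals whose lower ends were 0.36, 0.17, 0.21 and 0.00061. Without knockout replicate C the 6 class II genes were all called higher than at day 45, H2-Ab1 by 2.25 (adjusted p = 0.00173, limma), in a fit that called 1661 of 11376 tested genes higher and 4258 lower. Ciita differed by -0.12 (95% interval -0.53 to 0.28).

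Across the mice the 6 class II genes were high or low together. The Pearson correlations of log2(FPKM + 1) among H2-Aa, H2-Ab1, H2-Eb1, Cd74, H2-DMa and H2-DMb1 over the 14 mice were 0.988 to 0.999 for the 15 pairs, and 0.970 to 0.998 after the mean of each group was taken out. The points share libraries, so these values are a description. Ctss correlated with the 6 genes at 0.610 to 0.673 over all mice and at 0.753 to 0.866 within groups. Ciita did so at 0.766 to 0.804 over all mice but at 0.323 to 0.407 within groups. The ratio of H2-Aa to H2-Ab1 was 1.79 ± 0.20 in the uninjected mice (SD, n = 3), 1.62 ± 0.17 at day 21, 1.58 ± 0.11 at day 45, 1.46 ± 0.06 at days 100 and 200 (n = 2) and 1.16 ± 0.09 in the knockout, where all 3 mice lay below all the floxed mice. Whether a difference in MHC haplotype between the knockout and floxed mice bears on the mapping of reads to the class II genes was not tested. Cd74 per H2-Aa was 1.48 ± 0.17 without injection and 2.00 ± 0.18 in the knockout, again with no overlap.

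The level of Cd74 relative to the protease that cuts its product was read per mouse, without a test. Cd74 per Ctss was 1.69 ± 0.29 in the uninjected mice, 3.15 ± 0.91 at day 21, 2.10 ± 0.08 at day 45 and 3.34 ± 0.32 in the late mice, and it was 15.9, 18.7 and 5.61 in knockout replicates A, B and C. The day 45 mice, at 2.01 to 2.17, overlapped the uninjected mice, at 1.46 to 2.02. Each knockout mouse exceeded every floxed mouse, of which the highest was day 21 replicate C at 4.15. Cd74 per Ciita overlapped between the uninjected mice (298 ± 45.0) and those of day 21 (244 ± 69.1). It was 219 ± 10.97 at day 45 and 234 ± 34.3 in the late mice, and every mouse of both groups lay below every uninjected mouse. In the knockout that ratio was 1255 and 938 in replicates A and B and 224 in replicate C, which lay inside the floxed range. Ciita stood at 1.27, 1.85 and 1.83 FPKM in knockout replicates A, B and C, and Cd74 at 1597, 1733 and 411. A and B are the libraries in which the longest class of transcripts, which includes that of Ciita, was low. The part of that shift in the ratio was not tested.

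**Figure D4:**
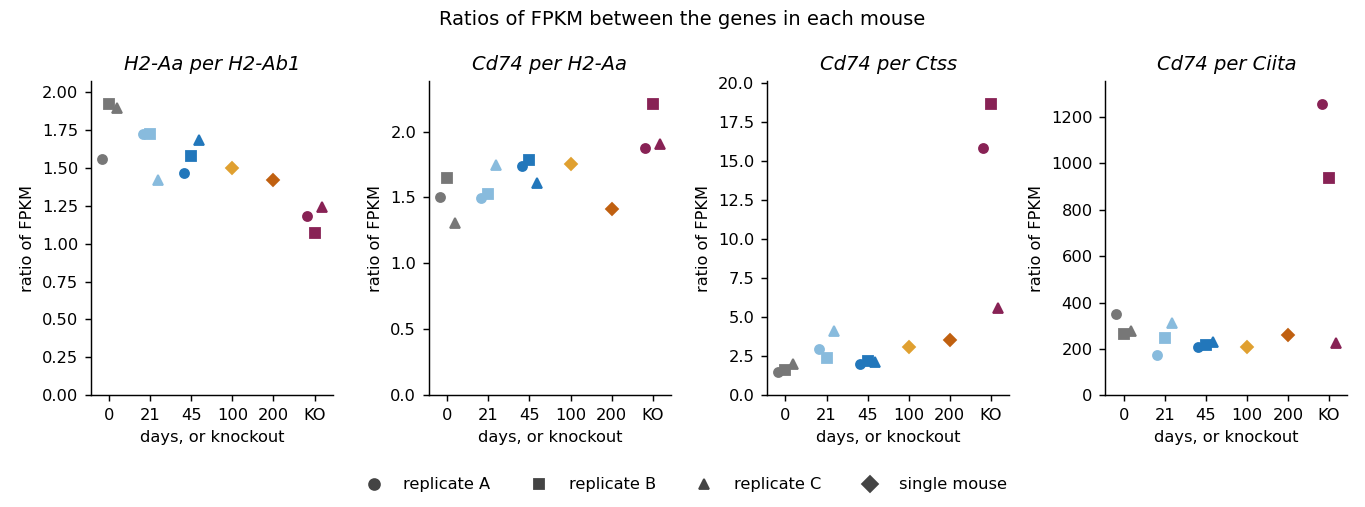
Ratios of FPKM in each mouse by days after rAAV8-Cre or in the knockout (KO). The ratio of H2-Aa to H2-Ab1 is lowest in the 3 knockout mice, Cd74 per Ctss is 5.61 or more in them and 4.15 or less in the others, and Cd74 per Ciita is raised in knockout replicates A and B alone.

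The proximal promoters of the class II genes are known for an X box, bound by the RFX complex, followed by a Y box, bound by NF-Y, the platform on which Ciita acts. Promoter windows from 250 bases before to 50 bases after the start were available for 5 of the 8 genes (RefSeq, GRCm38.p6), namely H2-Aa, H2-Eb1, H2-DMa, H2-DMb1 and Ctss, and not for H2-Ab1, Cd74 and Ciita. The Y box core GATTGG was searched on both strands, as was an X half-site (AGCAAC or AGTAAC) with GATTGG 12 to 30 bases further on in the same direction. The stretches that hold both, for H2-Aa with a wider half-site named below, are shown as a description. Each has 12 bases on either side, 5′ to 3′ on the gene's strand and with GRCm38 coordinates, with the X half-site and the Y box in capitals.
H2-Eb1 (chr17:34305763-34305824, plus strand): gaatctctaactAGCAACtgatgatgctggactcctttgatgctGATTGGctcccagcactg
H2-DMb1 (chr17:34153084-34153146, plus strand): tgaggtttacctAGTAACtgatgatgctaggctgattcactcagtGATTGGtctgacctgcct
H2-Aa (chr17:34287855-34287917, minus strand): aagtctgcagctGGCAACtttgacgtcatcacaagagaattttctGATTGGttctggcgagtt
The pair was found in H2-Eb1 and H2-DMb1, with 26 and 27 bases between the half-site and the Y box, and in 0.158% of the 32851 promoter windows. H2-Aa held only the wider half-site GGCAAC, 27 bases before its Y box; the forms GGCAAC and GGTAAC were added after these promoters were read, and the pair with any of the 4 forms occurred in 0.271% of windows. GATTGG alone was in 16.1% of windows, and was also found in 1 of the 2 windows of H2-DMa. Neither window of H2-DMa, which moved with the other class II genes, held a pair. Ctss held neither GATTGG nor the half-sites AGCAAC and AGTAAC. Among related genes, the pair AGCAAC or AGTAAC with GATTGG was found in H2-Oa, H2-Ob and H2-Eb2 and not in H2-DMb2. A match is a run of letters in a reference window, not a measurement of binding.

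Of 5 other class II genes in the table, H2-Oa, H2-Ob and H2-DMb2 passed the filter. All 3 averaged under 1 FPKM without injection and passed only through the later groups, so their number is not read as a result. H2-Oa and H2-Ob form H2-DO, which restrains H2-DM. H2-Oa was at 0.650, 0.224 and 0.752 FPKM in the uninjected mice and at 1.52, 3.38 and 2.90 in the day 45 mice. H2-Ob was at 0.672, 0.271 and 0.637 FPKM without injection and at 1.42, 2.97 and 1.87 at day 45, and H2-DMb2 at 0.258, 0.083 and 0.672 and at 1.53, 1.97 and 1.96. Of 7 transcription factors that act with Ciita, 1 was called higher at day 45 (23.7% of tested genes) and 2 in the late mice (28.4%). At day 45 it was Rfx5, a subunit of the RFX complex (0.81, adjusted p = 0.0136), and Rfxap had the lowest value (-0.036). In the knockout 0 of the 7 were called higher by limma (0 at an unadjusted p under 0.05) and 1 lower, beside 19.3% and 14.5% of all tested genes. The lower one was Nfyb, a subunit of NF-Y (-0.78, adjusted p = 0.0166), at 8.85 and 10.97 FPKM in replicates A and B and at 17.7 in replicate C.

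The interferon gamma route is what induces Ciita in most cells other than dendritic and B cells. Of 7 tested genes of the route, 2 were called higher at day 21 (6.2% of tested genes), 5 at day 45 (23.7%) and 5 in the late mice (28.4%). In the knockout Ifngr1 was called higher and Irf2 lower, 1 of 7 each, which is near the 19.3% and 14.5% of all tested genes. The median log2 fold change was 0.67 at day 45 and 0.08 in the knockout, beside 0.20 and 0.016 for all tested genes. Irf1, a factor that interferon gamma induces, was at 30.4, 16.6 and 28.3 FPKM in the uninjected mice, 64.6, 45.9 and 67.2 at day 21, 43.5, 48.0 and 47.8 at day 45, and 24.5, 26.2 and 30.7 in the knockout. It was called higher at day 21 (1.23, adjusted p = 0.00704) and day 45 (0.90, adjusted p = 0.00892), and its knockout difference was 0.14 (adjusted p = 0.619). Irf2 had the lowest value of the route at day 45 (-0.10) and the knockout value was -0.54 (adjusted p = 0.0207). Ifng itself was below the filter, at 0.035 to 0.188 FPKM without injection and at 0.103 to 0.434 in the floxed mice of days 21 to 200. In the knockout it was at 0.155, 0.061 and 0.035 FPKM, within the uninjected range.

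Of 8 lysosomal processing genes 2 were called higher at day 21 and 3 in the late mice, beside 6.2% and 28.4% of all tested genes. At day 45 2 were called higher, and 2 in the knockout, a share near the 23.7% and 19.3% of all tested genes. They were Ifi30, the thiol reductase of the endosome, and Lgmn, the asparagine endopeptidase, at day 45 (1.47 and 1.33, adjusted p = 0.00479 and 0.00207) and in the knockout (1.66 and 0.96, adjusted p = 0.00302 and 0.0117). Ctsc, cathepsin C, was called lower in the knockout (-1.22, adjusted p = 0.00509, limma), 1 of the 8 genes beside 14.5% of all tested genes. Ctsh had the lowest day 45 value (-0.24). Of the pair of ubiquitin ligases that remove class II molecules from the surface, March1 passed the filter only through the injected mice and was at 0.639, 0.618 and 1.10 FPKM without injection and at 2.20, 2.73 and 1.75 at day 45. March8 was called lower in the knockout (-0.70, adjusted p = 0.0350, limma), as were 14.5% of tested genes. It was at 14.6 and 18.9 FPKM in the length-shifted replicates A and B and at 31.4 in C, within the uninjected range. Of 7 costimulation genes 5 passed the filter, Cd40 and Icosl only through the later groups. The day 45 differences of the 5 ran from 1.11 for Cd86 to 1.48 for Cd40. Of 12 class I presentation genes 6 were called higher at day 45 and 6 in the knockout, beside 23.7% and 19.3% of all tested genes. Erap1, 1 of the 12, was called lower in the knockout (-1.16), where 14.5% of tested genes were. It was at 8.57 and 10.99 FPKM in the length-shifted replicates A and B and at 29.1 in C. The day 45 changes of the 12 ran from -0.43 for Calr to 1.36 for the immunoproteasome subunit Psmb8, with a median of 0.80.

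Markers of the cells that can carry class II molecules are given beside these genes, list by list, and their part in the result was not tested. The 5 leukocyte markers summed to 32.6 to 67.6 FPKM in the uninjected mice, 125 to 246 at day 21, 170 to 215 at day 45, 252 and 302 at days 100 and 200, and 243, 187 and 82.0 in knockout replicates A, B and C. All 5 were called higher at day 45, from Cd53 (1.26) to Cd52 (2.01), and 3 were in the knockout, beside 23.7% and 19.3% of all tested genes. The 8 Kupffer cell markers summed to 187 to 343 FPKM without injection, 457 to 499 at day 21, 615 to 648 at day 45, 354 and 329 at days 100 and 200, and 206 to 475 in the knockout, with 7 called higher at day 45 (23.7% of tested genes), 2 at the late days (28.4%) and Csf1r alone in the knockout (0.96, adjusted p = 0.0458; 19.3%). Both late mice lay below the 3 day 45 mice in this sum, and above them in the sum of H2-Aa, H2-Ab1, H2-Eb1 and Cd74. Marco had the largest day 45 change of this list (2.67) and Cd163 the lowest (0.94, adjusted p = 0.115).

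The summed markers of recruited macrophages and monocytes were highest in the late mice, and Lyz2 made up most of that sum, at 525 and 724 FPKM there. The 8 markers summed to 76.2 to 132 FPKM without injection, 207 to 357 at day 21, 326 to 408 at day 45, 620 and 804 at days 100 and 200, and 131 to 416 in the knockout. Cd68 was instead lower in both late mice, at 23.9 and 22.0 FPKM, than in the day 45 mice, at 24.6, 27.9 and 32.8. Of the 7 markers that passed the filter, 5 (Ccr2, Itgam, Cx3cr1, Ly6c2 and Trem2) averaged under 1 FPKM without injection and passed through the later groups, so no count is read from this list. The day 45 differences ran from 1.18 for Itgam to 2.75 for Ly6c2. The 10 dendritic cell markers summed to 5.37 to 8.75 FPKM without injection, 18.8 to 29.5 at day 21, 19.8 to 31.6 at day 45, 39.5 and 42.2 at the late days and 11.6 to 30.5 in the knockout. Of the 7 that passed the filter, 5 (Itgax, Clec9a, Ccr7, Siglech and Batf3) did so through the later groups, and the day 45 differences ran from 0.46 for Zbtb46 (adjusted p = 0.128) to 1.68 for Irf8 (adjusted p = 0.00562).

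Lymphocyte marker sums of the day 21 and day 45 mice lay above those of all uninjected mice. The 9 B cell markers summed to 2.30 to 5.83 FPKM without injection, 10.8 to 16.6 at day 21, 12.1 to 16.3 at day 45, 10.7 and 17.4 at the late days and 5.30 to 10.8 in the knockout. Of these, 4 passed the filter, and Cd79a, Cd22 and Ms4a1 did so through the later groups. Cd79b, the other one, rose by 1.27 at day 45 (adjusted p = 0.0128) and by 0.96 in the knockout (adjusted p = 0.0402), and Ms4a1 had the lowest day 45 difference (0.79). The 9 T and NK cell markers summed to 3.43 to 6.77 FPKM without injection, 21.9 to 49.9 at day 21, 15.7 to 24.1 at day 45, 21.7 and 33.0 at the late days and 9.64 to 25.3 in the knockout, and 5 of the 7 that passed the filter did so through the later groups. Nkg7 had the largest day 45 difference of these (1.76) and Cd4 the lowest (0.52, adjusted p = 0.131). No gene of these 6 immune lists was listed at 0 in every mouse of a group. Cd52 made up most of the leukocyte sum, and in the knockout the 5 markers did not share 1 order. Cd52, at 141, 107 and 50.5 FPKM in replicates A, B and C, was highest in A, as were Coro1a and Laptm5, whereas Ptprc, at 2.08, 2.36 and 4.56, and Cd53, at 5.06, 5.58 and 6.10, were highest in C.

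**Figure D5:**
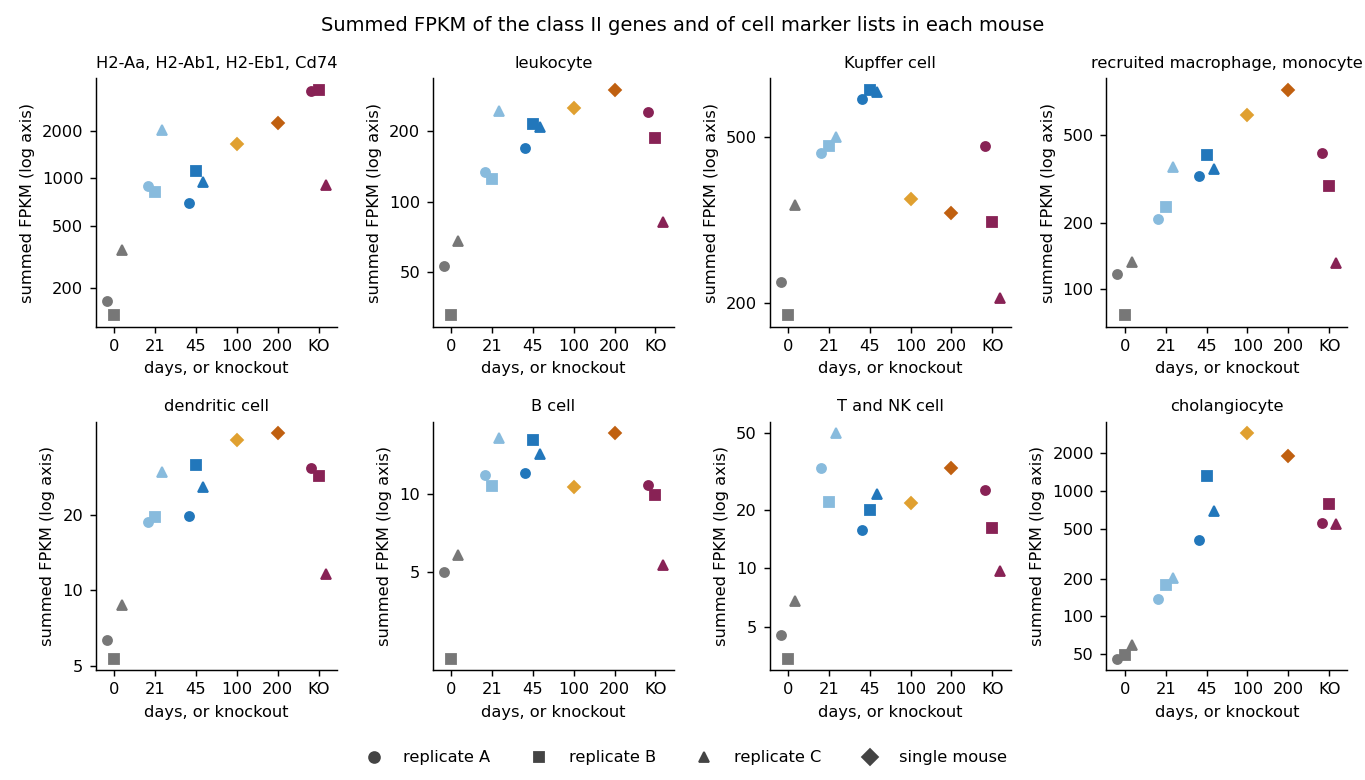
Summed FPKM (log axis) of H2-Aa, H2-Ab1, H2-Eb1 and Cd74 and of 7 cell marker lists in each mouse, by days after rAAV8-Cre or in the knockout (KO). The class II sum is 135 to 351 without injection, 820 to 2012 at day 21, 696 to 1109 at day 45, 1648 and 2249 at days 100 and 200 and 907 to 3652 in the knockout, and the leukocyte, monocyte and dendritic cell sums are higher in every injected mouse than in any uninjected mouse.

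Markers of other liver cell types were read in the same way. Of the 5 cholangiocyte markers, Sox9 passed the filter through the later groups and differed by 1.15 at day 45. The other 4 were called higher at day 45 and in the knockout, beside 23.7% and 19.3% of all tested genes, from Krt7 (2.05) to Spp1 (3.84) at day 45. The sum of the 5, 46.1 to 59.2 FPKM without injection, was 137 to 203 at day 21 and 405 to 1330 at day 45. It was highest at days 100 and 200, at 2920 and 1920, and was 551 to 794 in the knockout. Spp1 alone gave 383 to 1259 FPKM of that sum at day 45, 2866 and 1854.5 at days 100 and 200, and 506 to 732 in the knockout. Of the 6 stellate cell and fibroblast markers, Col1a1 passed through the later groups and differed by 2.73 at day 45 and 2.30 in the knockout. The other 5 were called higher at day 45, from Des (1.01) to Rgs5 (1.62), and 2 of them in the knockout, Des and Pdgfrb (adjusted p = 0.0319 and 0.00655, limma), beside 23.7% and 19.3% of all tested genes. Of 7 endothelial markers 2 were called higher at day 21 and 3 in the late mice, beside 6.2% and 28.4% of all tested genes. At day 45 2 were called higher, a share near that of all tested genes, namely Cdh5 (1.16) and Pecam1 (1.12). Stab2 had the lowest day 45 value (0.38), and Lyve1 (-0.93) and Clec4g (-0.87) were called lower in the knockout, where 14.5% of tested genes were. Of the 6 tested hepatocyte markers none was called at day 45 or in the knockout by limma, where 1 gene each had an unadjusted p under 0.05, Apoa1 at day 45 (-0.65) and Cps1 in the knockout (-0.89, at 350, 400.5 and 898 FPKM in replicates A, B and C). Apoa1 was called lower at the late days (-0.94, adjusted p = 0.0357). Cps1 had the highest day 45 value of this list (0.049). Alb was listed at 0 in all 14 mice and Trf in 11 of them, so a 0 in this table can be a failed estimate. Trf is 1 of the 6 tested hepatocyte markers, so its missing call and its day 45 change, the lowest of the list, are not read.

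The genes whose pattern over the 14 mice was most like the mean standardised log2 level of H2-Aa, H2-Ab1, H2-Eb1 and Cd74 were Itgb7 (Pearson's r = 0.979), S100a8 (0.966), Napsa (0.965), Pla2g7 (0.960) and Ctsw (0.959), of the tested genes outside the 8. Itgb7, an integrin beta chain of leukocytes, was at 0.787, 0.499 and 1.28 FPKM in the uninjected mice, 2.58, 2.31 and 3.98 at day 21, 2.64, 3.38 and 3.16 at day 45, 3.84 and 5.58 at the late days and 5.82, 5.58 and 1.94 in the knockout. S100a8, a calcium-binding protein of neutrophils and monocytes, averaged 5.31 FPKM without injection, 37.0 at day 21, 33.6 at day 45, 78.5 at the late days and 59.8 in the knockout. Knockout replicate C was the lowest knockout mouse for all 5 genes, as it was for the chains. Itgb7, Napsa and Ctsw averaged 0.854, 0.491 and 0.485 FPKM without injection, so they were tested only through the later groups. The likeness is a description over mice that share libraries, and with Spearman's rho, or after group means were taken out, 2 of these 5 remained among the first 5.

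Among MHC genes outside the 8, a few separated the knockout from all floxed mice. Of the 23 other tested genes with an H2 symbol, 3 had every knockout mouse above every floxed mouse, beside 0.74% of all tested genes. They were found by looking at these values. H2-Bl, 1 of them, passed the filter only through the knockout mice, so their number is not read as a result. H2-Bl was at 11.96, 13.9 and 13.2 FPKM in the knockout and at no more than 0.699 in any floxed mouse, H2-T10 was at 61.6, 61.4 and 15.25 against at most 5.002, and H2-T24 was at 6.51, 6.99 and 6.28 against at most 5.50. These are class I related genes of the same region of chromosome 17 as the class II genes. Whether the knockout and floxed mice carry the same MHC haplotype was not tested.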

How the data were processed

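Livers of 14 mice were measured by poly-A RNA-seq. The authors aligned paired reads to mm9 with TopHat and deposited FPKM from Cufflinks 2.2.1 with quartile library normalization and without ribosomal, small nucleolar and mitochondrial sequences. FPKM hold no counts, and quartile scaling sets levels relative to the other genes. In the small RNA table, used only for the miR-122 share, the authors deposited RPM with 1 added to each value, from reads aligned with Bowtie 0.12.7; the 1 was taken off. Whether counting used strand is not given in the sources used here. In the GENCODE M1 annotation a transcript of H2-Aa overlaps the end of H2-Ab1 on the opposite strand. Among 22308 table entries there are 21888 symbols; entries of the 224 repeated symbols were added up, and 3 empty columns were not used.

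limma 3.58.1 in R 4.3.3 (lmFit, contrasts, eBayes with trend) was run on log2(FPKM + 1), keeping the 11354 genes that averaged 1 FPKM or more over all mice, with all 5 groups fitted jointly (the mice of days 100 and 200 form 1 group), with Benjamini-Hochberg adjustment within each comparison and a threshold of 0.05. The smallest two-sided exact permutation p for 3 mice against 3 is 0.1, so none was used. Lists are described by counts and medians. Genes named from a list are those of highest and lowest day 45 change, and all called ones where a list has 4 or fewer, with other genes named where a count came down to a few; the 5 most similar genes are those of highest Pearson's r. The 8 genes and the lists were chosen with earlier results of these data known. On simulated data with 200 changed genes at day 45, the fit recovered 55.5%, 92% and 99.5% of changes of log2 1, 2 and 3. Alternatives were another pseudocount and filter, centred libraries, fits of fewer groups, a replicate block and leaving out each mouse. Each library is a separate mouse, so p-values measure the spread between mice. Tables and figures used Python 3.11.15 and matplotlib 3.10.9.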

Additional observations from a re-analysis of the deposited data

Results flagged for a closer look

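Ctss was set apart because its change differed between the knockout and the day 45 mice by a direct test: it was lower in the knockout by a log2 difference of -1.14 (adjusted p = 0.0210, limma), in 3 of 3 knockout mice, whereas the other 7 genes were not called in that comparison. The 3 knockout mice were at 100.6, 92.9 and 73.3 FPKM and the day 45 mice at 156, 236 and 202 FPKM. The call was lost in 5 of the alternative fits named with the result.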

How the results depend on the processing

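Leaving out 1 mouse at a time gave 2 to 8 genes called higher of the 8 at day 21, beside 194 to 519 of all tested genes. At day 45 it gave 4 to 8, beside 1601 to 2493, and in the knockout 7 to 8, beside 1063 to 3610. At days 100 and 200 it gave 8 when an uninjected mouse was left out, beside 2620 to 2808. Against day 45 the knockout had 0 to 6 higher (6 without knockout replicate C), beside 42 to 1661, and 0 to 1 lower, beside 161 to 4258. The counts of 8 include Ciita, which passed the filter only through the later groups. With the replicate letter as a block, 3 genes were called at day 21, 7 at day 45 and 7 in the knockout; 8 of 18 same-letter pairs had a correlation of deviations over 0.1 and 6 of 12 mice correlated best with their own letter, so the letters were not taken to pair animals. Without a filter 6 were called at day 21 (H2-DMa at adjusted p = 0.0522 and H2-DMb1 at 0.0669, limma), with centred libraries 7 at day 45 (H2-DMa at 0.0515), and with only the 2 groups 6 in the knockout, where Ciita fell below the filter. The lower call of Ctss against day 45 fell to 0 with libraries centred on the median log2 ratio and with only the 2 groups. The ratio of the summed H2-Aa, H2-Ab1, H2-Eb1 and Cd74 to day 0, 5.71 at day 21, 4.23 at day 45, 8.97 at the late days and 12.5 in the knockout from means, was 5.36, 5.74, 11.8 and 21.6 from medians, and without 1 mouse 3.93 to 8.25, 3.55 to 6.11, 7.53 to 12.97 and 10.3 to 18.1 (the highest without uninjected replicate C). Centring moved the median of all genes at day 45 from 0.20 to -0.037 and at the late days from 0.31 to -0.028, and the split of day 45 calls from 2688 higher and 339 lower to 1644 and 795; at the late days from 3227 and 365 to 1785 and 993, and in the knockout against day 45 from 137 and 935 to 186 and 219. The genes called at day 21, 865 of all tested, were 467 with the block, 1497 with only the 2 groups and 1921 without the knockout mice in the fit; the 3833 of the knockout were 1042 with only the 2 groups. Directions turned in 7 fits, all without a call. Without 1 mouse the day 45 minus day 21 difference ran from -0.59 to 0.11 for H2-Ab1, -0.51 to 0.16 for Cd74, -0.52 to 0.061 for H2-DMa, -0.34 to 0.31 for H2-DMb1 and -0.28 to 0.049 for Ciita, lowest without day 21 replicate B and highest without day 21 replicate C; H2-DMb1 was also above 0, at 0.14, without day 45 replicate A. Ciita in the knockout against day 45 was 0.089 with centring. The cause was not tested. Of the 5 most similar genes 2 remained with Spearman's rho and 2 after group means were taken out. The wider X half-site raised the promoters with the pair from 2 to 3. The fit without the knockout mice and the wider half-site were added after the data were seen. Depth is approximate, and 1 mouse each at days 100 and 200 limits those days.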
